A study of Mus musculus with 12 samples.

Results

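Immediate early genes are switched on within minutes of a stimulus, without new protein synthesis, by transcription factors that already wait on their promoters. Growth factor and stress signals reach them through MAP kinases and serum response factor, and hormone signals through cAMP and CREB. In liver they are known for their response to feeding, fasting hormones, injury and handling, and their RNAs and proteins are short-lived. The 10 genes described here were chosen by name. They are the zinc finger factor Egr1, the AP-1 subunits Fos, Fosb, Jun and Junb, the ATF/CREB family factor Atf3, the small proteins Ier2 and Ier3, the MAP kinase phosphatase Dusp1 and the antiproliferative factor Btg2. All 10 had a row among the 48440 genes of the deposited tables, and 9 of the 10 passed the filter on low counts that left 15244 genes for testing. Fosb did not pass, with 1 to 12 reads in a library.

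Poly(A) RNA was measured in whole liver of male C57BL/6 mice, 8 weeks old, fed chow at will with light and dark periods of 12 h each. Wild-type mice (WT) and transgenic mice that overexpress E4BP4 in the liver (TG) were sampled at ZT2, early in the light, and at ZT14, early in the dark (ZT being the number of hours since the lights came on). Each of the 4 groups had 3 libraries, 12 in all. E4BP4, the product of Nfil3, is a repressor that binds D-box elements. No source used here gives the transgene's promoter or the number of founder lines. Whether samples of 1 group came from different mice is not stated in the labels, so the p-values reflect the spread between these samples alone, which may be technical.

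Libraries held 16035121 to 23981021 total gene reads, of which 9.79% to 11.9% lay in introns. Nfil3, the overexpressed gene, stood at 24.6 to 48.8 CPM in the WT libraries and 62.6 to 93.9 CPM in the TG libraries, where CPM are counts scaled to library size. Between TG and WT it differed at ZT2 by 0.81 on the log2 scale (SE 0.21, adjusted p = 0.359 by edgeR, above the threshold of 0.05). At ZT14 the difference was 1.34 (SE 0.21, adjusted p = 0.0306 by edgeR). Hepatocyte markers, 9 of 10 with a row, summed to 71034 to 90266 CPM, and none was at 0. Markers of Kupffer cells summed to 419 to 590 CPM and those of endothelial cells to 397 to 455 CPM. The 12 markers of stellate cells and fibroblasts summed at ZT2 to 204 to 281 CPM in WT and 291 to 355 CPM in TG. Their sums overlapped at ZT14, and 0 of the 12 were called between genotypes at either time. Markers of neutrophils, which carry high levels of several of these genes, summed to 2.30 to 7.65 CPM, with Ly6g at 0 in TG at ZT2, and Ly6g and Ngp at 0 in WT at ZT14, in all 3 libraries of the group. In addition, 2 TG libraries, replicate 2 of ZT2 and replicate 3 of ZT14, are known from earlier work on these data to stand apart in many genes. They had the highest hepatocyte sums, 89348 and 90266 CPM against 71034 to 79876 CPM in the others, and the highest Kupffer cell sums, 590 and 583 CPM against 419 to 559 CPM. Results that rest on them are given with and without them.

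The promoter stretches of 4 members are shown because these genes are the ones, beside Egr1, whose levels moved most with time, in opposite directions. Of the 10 members, 8 matched an entry among the RefSeq promoters of GRCm38.p6, each 250 bases before to 50 bases after the start, and Egr1 and Ier2 did not. The stretches lie at chr4:95052223-95052472 for Jun, chr1:191183334-191183583 for Atf3, chr8:84978749-84978998 for Junb and chr17:26508520-26508722 for Dusp1, all on the minus strand. They are written 5′ to 3′. The one of Dusp1, of 203 bases, ends just before the deposited gene's first base, short of the RefSeq start from which positions are counted. Those of the other 3 end at the RefSeq start. The stretch of Atf3 lies inside the deposited gene (chr1:191170296-191218039), at an internal start and not at the gene's first base. Capitals mark TGACATCA in Jun, TTACGTCA in Atf3, TGACG, the core of the cAMP response element, in Junb, and TGACG and the whole element TGACGTCA in Dusp1. The 4 stretches and the motifs TGACATCA and TTACGTCA were chosen after the values and sequences had been seen.
Jun: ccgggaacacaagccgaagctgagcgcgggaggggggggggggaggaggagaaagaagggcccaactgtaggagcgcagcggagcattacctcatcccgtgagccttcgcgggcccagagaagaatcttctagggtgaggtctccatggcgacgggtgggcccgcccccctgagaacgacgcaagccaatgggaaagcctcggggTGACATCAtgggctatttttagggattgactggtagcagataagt
Atf3: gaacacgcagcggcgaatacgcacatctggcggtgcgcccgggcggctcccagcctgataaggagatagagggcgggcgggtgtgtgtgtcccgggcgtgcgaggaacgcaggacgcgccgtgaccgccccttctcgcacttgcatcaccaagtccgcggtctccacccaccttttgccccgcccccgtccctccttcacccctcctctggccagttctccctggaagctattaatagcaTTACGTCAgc
Junb: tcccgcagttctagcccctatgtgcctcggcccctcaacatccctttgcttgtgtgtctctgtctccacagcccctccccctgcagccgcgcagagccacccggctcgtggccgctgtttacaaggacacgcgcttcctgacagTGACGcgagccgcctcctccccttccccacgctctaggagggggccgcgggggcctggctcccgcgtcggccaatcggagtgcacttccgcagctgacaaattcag
Dusp1: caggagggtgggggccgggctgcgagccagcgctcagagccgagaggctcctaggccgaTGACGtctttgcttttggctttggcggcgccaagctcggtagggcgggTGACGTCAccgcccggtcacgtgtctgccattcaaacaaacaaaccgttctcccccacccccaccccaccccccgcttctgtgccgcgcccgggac

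Both strands of all 8 matched promoters were searched. TGACGTCA was present in Btg2, at bases -166 to -159 from the start, and in Dusp1, at bases -143 to -136, against 1.79% of 32851 mouse promoters of the same length. TGACG, which is part of TGACGTCA and on the other strand part of TTACGTCA, was present in 6 of 8 (Atf3, Btg2, Dusp1, Fos, Fosb and Junb), against 20.8% of all promoters. TGACATCA was found in Jun at -45 to -38 and TTACGTCA in Atf3 at -10 to -3, against 3.62% and 0.499% of all promoters. The CArG box, the site of serum response factor, had no match in the 8 windows (1.63% of all promoters), nor had the AP-1 site TGACTCA (5.20%) or the D-box sequences TTATGTAA (0.938%) and TTACGTAA (0.119%). These matches describe letters in a window, and binding was not measured. Sites further than 250 bases before the start, and any site of Egr1 or Ier2, were outside the search.

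Levels of the 10 genes can be compared per length of exon, in the deposited RPKM (exon reads scaled to exon length and library size). Averaged over the 12 libraries, Ier2 (14.8 RPKM), Dusp1 (14.5), Junb (9.995), Egr1 (7.66), Jun (5.86) and Btg2 (5.34) formed an upper tier. Atf3 (0.765 RPKM), Fos (0.632) and Ier3 (0.576) formed a lower tier, and Fosb was the lowest at 0.0599 RPKM. The order changed with time mainly through Egr1. At ZT2 it ranked 3 of 10 in WT and 1 of 10 in TG, at 12.1 ± 7.28 and 16.5 ± 13.0 RPKM (SD, n = 3 each), and at ZT14 7 and 6 of 10, at 0.753 ± 0.323 and 1.31 ± 0.592 RPKM. At ZT14 Dusp1 ranked first in both genotypes, at 19.2 ± 4.12 RPKM in WT and 20.5 ± 10.5 RPKM in TG. Neighbours in these orders mostly overlapped between libraries. In WT at ZT2 the neighbours that did not overlap were Ier2 above Junb, Btg2 above Atf3 and Ier3 above Fosb.

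**Figure D1:**
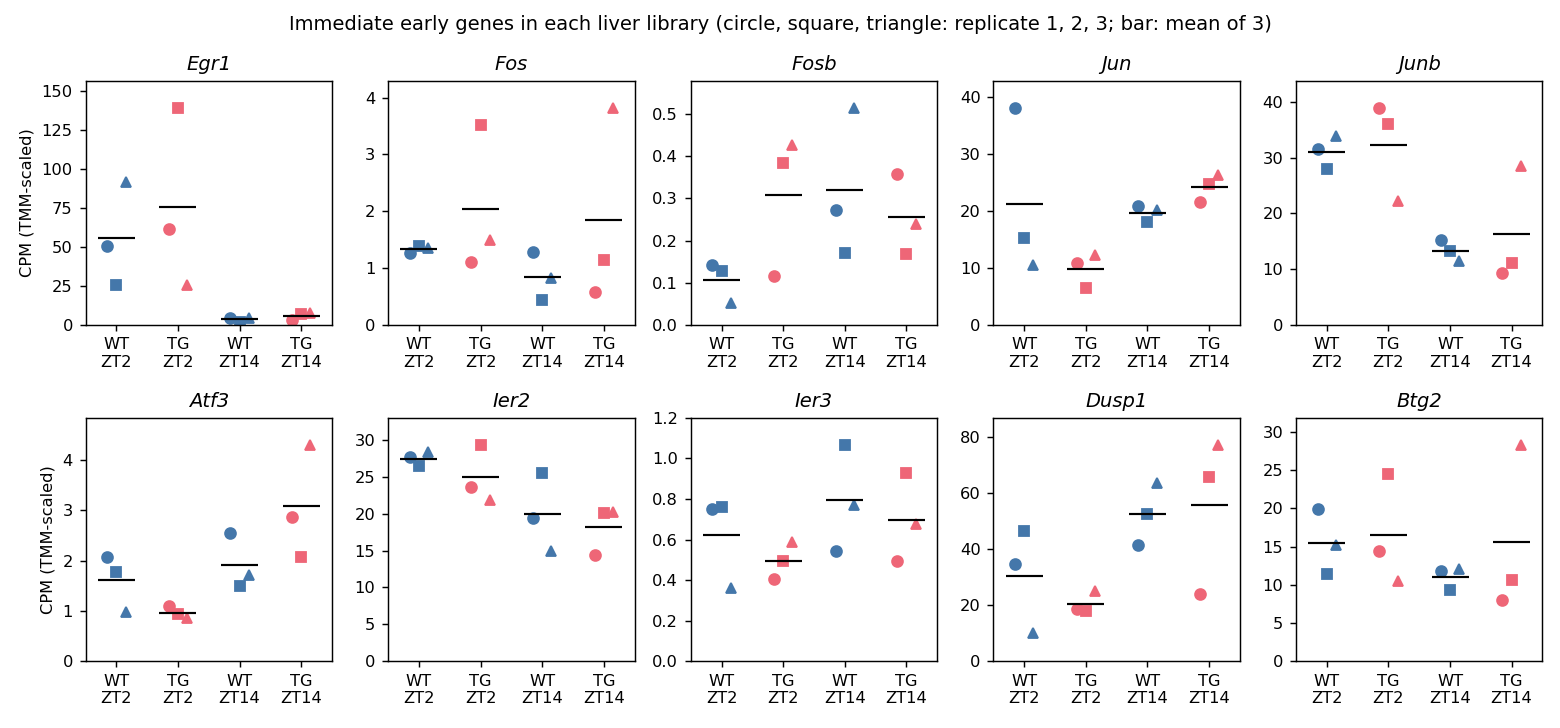
Each panel plots 1 gene in CPM on its own linear axis from 0, by genotype (blue WT, red TG) and time, with 1 point per library and a bar at the mean of 3. Egr1 lies at 25.5 to 139 CPM at ZT2 and 1.88 to 7.55 CPM at ZT14, while most other members overlap between times.

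Time of day was the comparison in which members changed. Between ZT2 and ZT14, 2 of 9 tested members changed in WT, both lower at ZT14 (Egr1 and Junb), where 9.17% of all tested genes were called. In TG, 3 of 9 changed, 1 lower (Egr1) and 2 higher (Jun and Atf3), where 12.2% of all tested genes were called. Calls are genes with an adjusted p below 0.05 by edgeR's quasi-likelihood test. Libraries of the 2 times did not overlap for 3 members in WT and 4 in TG, against 29.3% and 30.0% of all tested genes. The median log2 change of the 9 was -0.46 in WT and -0.07 in TG, beside 0.01 for all tested genes in each. The time comparisons share no libraries with each other.

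Egr1, which activates growth and metabolic genes and is itself induced through MAP kinases, had the largest time difference of the members. In WT at ZT2 the 3 libraries had 50.8, 25.5 and 91.7 CPM, and at ZT14 they had 4.27, 1.88 and 4.16 CPM. In TG the values were 61.4, 139 and 25.6 CPM at ZT2 and 2.96, 6.96 and 7.55 CPM at ZT14. Every library at ZT2 lay above every library at ZT14 of either genotype. Egr1 fell 16.3-fold in WT (log2 change -4.03, SE 0.66, adjusted p = 0.00232 by edgeR) and 12.9-fold in TG (log2 change -3.69, SE 0.63, adjusted p = 0.00273 by edgeR). The fall was thus smaller in TG on the log2 scale, by 0.35 (SE 0.87), and this difference did not pass the threshold (adjusted p = 0.973 by edgeR). Without both libraries that stood apart the TG change was -3.14 (adjusted p = 0.0152 by edgeR), and without TG at ZT2 replicate 2 alone it was -2.91 (adjusted p = 0.00801 by edgeR). In whole liver, fewer cells of a type and less RNA per cell cannot be told apart. Of the 9 listed neutrophil markers, 3 were tested for time. In WT 2 of the 3 were called lower at ZT14, where 9.17% of all tested genes were called, and the median log2 change was -2.84. In TG 0 of the 3 were called, where 12.2% of all tested genes were called, and the median was -0.73. The 9 listed markers summed to 3.48 to 7.65 CPM in WT at ZT2 and 2.66 to 3.82 CPM in WT at ZT14. In TG the sums overlapped, at 2.30 to 5.72 CPM at ZT2 and 2.91 to 4.97 CPM at ZT14. Of the 10 endothelial markers, 0 were called with time in WT and 2 were called lower at ZT14 in TG. No marker of the other listed cell types was called for time. The part of neutrophils or other cells in the Egr1 values was not tested.

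The 3 libraries of a group differed in Egr1 far more than in most genes. At ZT2 the highest library exceeded the lowest by 3.6-fold in WT and 5.4-fold in TG. The within-group SD of log2 CPM was 0.909, above 98.5% of tested genes, whose median was 0.198. Fos (0.841), Dusp1 (0.765) and Btg2 (0.605) also had a wide spread, while that of Ier2 was 0.262, above 62.5% of tested genes.

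Junb, an AP-1 subunit that often restrains Jun, followed the same direction with a smaller step. WT libraries had 31.5, 27.9 and 33.9 CPM at ZT2 and 15.3, 13.2 and 11.5 CPM at ZT14, with no overlap. TG libraries had 38.9, 36.0 and 22.2 CPM at ZT2 and 9.31, 11.2 and 28.6 CPM at ZT14. The highest TG value at ZT14 belonged to replicate 3, which made the TG groups overlap. Junb fell 2.34-fold in WT (log2 change -1.22, SE 0.34, adjusted p = 0.0441 by edgeR), and the TG change of -0.98 (SE 0.34) missed the threshold with adjusted p = 0.0827 by edgeR. The WT call was lost in 8 of 12 fits that left out 1 library, all 3 WT libraries of each time and TG at ZT2 replicates 1 and 2 (adjusted p = 0.0511 to 0.143 by edgeR). Without TG at ZT14 replicate 3, the TG change was -1.66 with adjusted p = 0.000915 by edgeR. Junb shares 351 bases with the antisense gene Prdx2 (chr8:84974484-84974834), and no source used here states whether counting used strand. Prdx2, at 79.8 to 89.9 CPM in the group means, changed by 0.17 in WT and -0.01 in TG on the log2 scale (adjusted p = 0.367 and 0.965 by edgeR).

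Jun, the main partner of Fos in AP-1, had the opposite time direction in TG. TG libraries had 10.8, 6.43 and 12.2 CPM at ZT2 and 21.5, 24.7 and 26.3 CPM at ZT14, with no overlap. WT libraries had 38.1, 15.3 and 10.4 CPM at ZT2 and 20.9, 18.1 and 20.2 CPM at ZT14, so that a single ZT2 library lay above the ZT14 values and the others below. Jun rose 2.46-fold in TG (log2 change 1.30, SE 0.37, adjusted p = 0.0404 by edgeR), against a WT change of -0.12 (SE 0.36, adjusted p = 0.894 by edgeR). The TG call was lost in 9 of 12 fits that left out 1 library, all except those without a WT library at ZT2 (adjusted p = 0.0534 to 0.138 by edgeR), and without both libraries that stood apart (log2 change 0.99, adjusted p = 0.219 by edgeR). Without WT at ZT2 replicate 1 the WT change was 0.61 (adjusted p = 0.176 by edgeR). The difference between the 2 time changes was 1.42 (SE 0.52, unadjusted p = 0.0176, adjusted p = 0.751 by edgeR). Jun is a single-exon gene that shares 689 bases with the antisense RNA Junos, which had 2.32 to 3.14 CPM in the group means. Only 76.1% (WT at ZT2 replicate 1) to 86.6% (TG at ZT2 replicate 1) of its reads were uniquely mapped. Each other member had at least 98.2% in every library. On uniquely mapped reads alone the TG change of Jun was 1.22 (SE 0.35, adjusted p = 0.0397 by edgeR).

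Atf3, a stress-induced factor that represses many of its targets, was a low gene with 16 to 108 reads in a library. TG libraries had 1.1, 0.927 and 0.856 CPM at ZT2 and 2.87, 2.07 and 4.29 CPM at ZT14, with no overlap. WT libraries had 2.07, 1.77 and 0.982 CPM at ZT2 and 2.55, 1.49 and 1.72 CPM at ZT14, which overlapped. Atf3 rose 3.19-fold in TG (log2 change 1.68, SE 0.35, adjusted p = 0.00885 by edgeR), and in WT the change was 0.25 (SE 0.34, adjusted p = 0.731 by edgeR). The TG call was kept in all 12 fits that left out 1 library. It was lost without both libraries that stood apart, at a log2 change of 1.32 (adjusted p = 0.0772 by edgeR). The difference between the time changes was 1.43 (SE 0.49, unadjusted p = 0.0126) and did not pass the threshold (adjusted p = 0.751 by edgeR), so that a time change particular to TG was not shown for Atf3 or Jun.

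Dusp1, which switches MAP kinases off by removing their phosphates, had its highest values at ZT14. WT libraries had 34.5, 46.3 and 10.1 CPM at ZT2 and 41.3, 52.6 and 63.5 CPM at ZT14. TG libraries had 18.6, 17.9 and 25.1 CPM at ZT2 and 24.0, 65.6 and 77.1 CPM at ZT14. In each genotype 1 library made the times overlap, WT at ZT2 replicate 2 above the lowest ZT14 value and TG at ZT14 replicate 1 below the highest ZT2 value. The log2 change was 0.80 (SE 0.46) in WT and 1.43 (SE 0.47) in TG, with adjusted p = 0.341 and 0.0692 by edgeR. With 1 library left out the TG change ran from 1.13 without TG at ZT14 replicate 3 (adjusted p = 0.185 by edgeR) to 1.79 without TG at ZT14 replicate 1 (adjusted p = 0.0280 by edgeR). It passed the threshold in 2 of the 12 such fits, the other being that without WT at ZT2 replicate 3 (log2 change 1.43, adjusted p = 0.0203 by edgeR). It was 1.02 without both libraries that stood apart (adjusted p = 0.333 by edgeR). The WT change ran from 0.38 without WT at ZT2 replicate 3 to 1.23 without WT at ZT2 replicate 2 and passed in none of these fits.

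Ier2, a nuclear protein of early growth responses, was the steadiest of the higher members. At ZT2 the WT libraries had 27.7, 26.4 and 28.3 CPM and the TG libraries 23.7, 29.3 and 21.8 CPM. At ZT14 they had 19.4, 25.5 and 14.97 CPM in WT, and the TG libraries had 14.4, 20.1 and 20.2 CPM. All ZT2 libraries lay above the ZT14 libraries of the same genotype. The log2 changes were -0.46 and -0.45 (SE 0.18 each), with adjusted p = 0.147 and 0.138 by edgeR. With 1 library left out the WT change ran from -0.29 without WT at ZT14 replicate 3 (adjusted p = 0.412 by edgeR) to -0.68 without WT at ZT14 replicate 2 (adjusted p = 0.0396 by edgeR), the 1 of 12 such fits in which it passed.

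Btg2, a p53 target that slows proliferation, overlapped between times in both genotypes. At ZT2 the WT libraries had 19.9, 11.5 and 15.2 CPM and the TG libraries 14.5, 24.5 and 10.5 CPM. At ZT14 the WT libraries had 11.8, 9.35 and 12.1 CPM and the TG libraries 8.06, 10.6 and 28.3 CPM. Its 2 highest values were those of the libraries that stood apart. Fos, the classical partner of Jun, had 1.27, 1.39 and 1.34 CPM in the WT libraries and 1.1, 3.52 and 1.5 CPM in the TG libraries at ZT2. At ZT14 it had 1.27, 0.427 and 0.815 CPM in the WT libraries and 0.582, 1.14 and 3.82 CPM in the TG libraries. Here too the 2 highest values, from 64 and 96 reads, came from the libraries that stood apart. Ier3, a regulator of cell survival under stress, ran from 0.362 to 1.07 CPM (7 to 25 reads), and Fosb from 0.0517 to 0.515 CPM. Fos, Ier3 and Btg2 did not pass the threshold for time in either genotype, with log2 changes of -0.67 to 0.49 and adjusted p = 0.491 to 0.938 by edgeR.

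**Figure D2:**
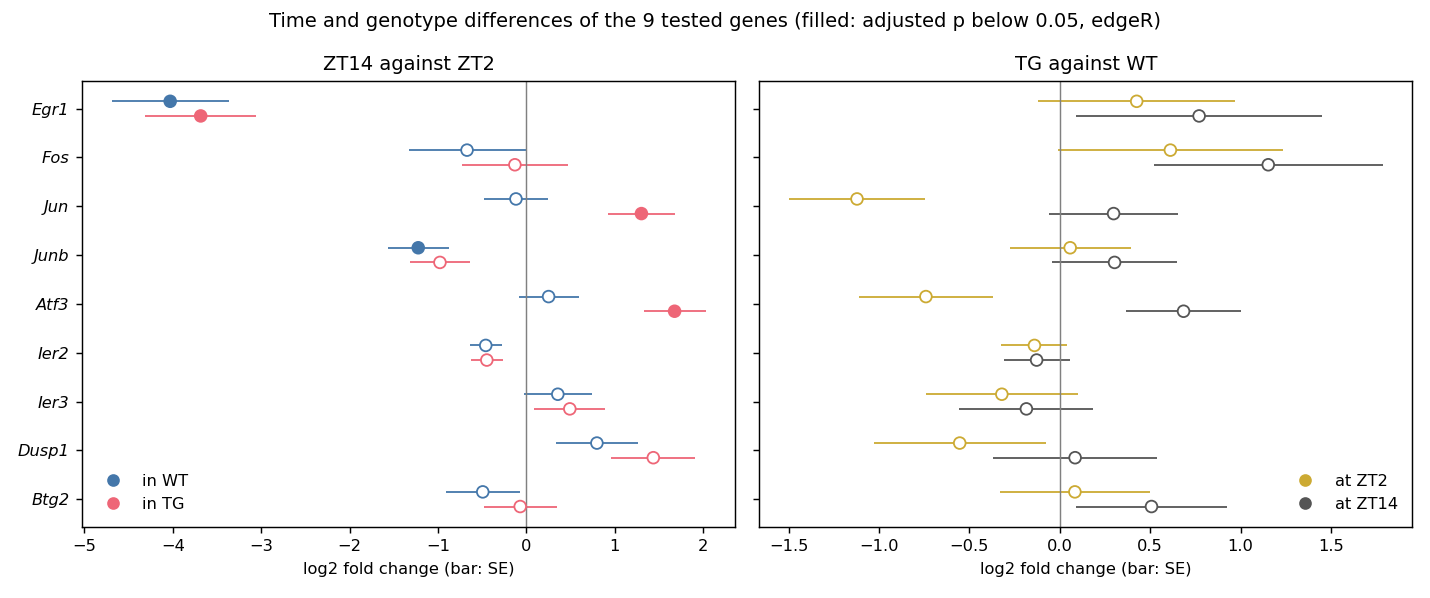
Points show the log2 change of each tested gene with a bar of 1 SE, at left ZT14 against ZT2 in WT (blue) and TG (red), at right TG against WT at ZT2 (yellow) and ZT14 (grey), and filled points passed the threshold. Egr1 stands near -4 in both genotypes, Jun and Atf3 are filled for TG at left, and at right no point is filled.

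TG and WT livers were compared at each time to ask whether E4BP4 overexpression moved these genes. None of the 9 tested members was called at ZT2 or at ZT14 by edgeR, DESeq2 or limma-voom, where edgeR called 0.0722% and 0.0853% of all tested genes. By the same edgeR test Nfil3 itself was called at ZT14 but not at ZT2 (log2 difference 0.81, adjusted p = 0.359 by edgeR), which limits what the ZT2 result can show. At an unadjusted p under 0.05, edgeR gave 1 member at ZT2, Jun, and 0 at ZT14, beside 7.56% and 6.91% of all tested genes. Jun at ZT2 stood at 21.3 ± 14.7 CPM in WT livers and 9.82 ± 3.03 CPM in TG livers (SD, 3 libraries each), a log2 difference of -1.12 (SE 0.38, unadjusted p = 0.0112, adjusted p = 0.546 by edgeR). Without WT at ZT2 replicate 1 this difference was -0.39. At ZT14 Jun was the 1 member whose genotypes did not overlap, with 18.1 to 20.9 CPM in WT and 21.5 to 26.3 CPM in TG (log2 difference 0.30, SE 0.36, adjusted p = 0.879 by edgeR). For all tested genes such separation occurred in 12.1% at ZT2, where 0 members had it, and 12.4% at ZT14. Atf3 differed by -0.74 (SE 0.37) at ZT2 and 0.68 (SE 0.32) at ZT14, and Egr1 by 0.43 (SE 0.55) and 0.77 (SE 0.68), on the log2 scale. Fos had the largest difference of the members at ZT14, 1.15 (SE 0.63, adjusted p = 0.738 by edgeR). Fos and Atf3 at ZT14 stood at 0.048 and 0.36 without both libraries that stood apart, and Egr1 at ZT2 turned to -0.37. The standard errors of the members ran from 0.18 (Ier2) to 0.68 (Egr1 at ZT14), so that a log2 difference of 1 lay within 2 standard errors for Egr1 and for Fos. More than 2 standard errors were needed for a call, since neither Jun (-1.12, SE 0.38) nor Nfil3 (0.81, SE 0.21) was called at ZT2. A log2 difference of 1 could therefore be missed in other members too.

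The TG time change minus the WT time change was above 0 for all 9 tested members, with a median of 0.42 on the log2 scale beside 0.00 for all tested genes, and none was called, where edgeR called 0.00656% of genes. At an unadjusted p under 0.05, edgeR gave 2 members, Atf3 and Jun, beside 5.98% of all tested genes, and neither DESeq2 nor limma-voom called any. The sign was not kept for 6 of the 9 in fits that left out 1 library (Egr1, Fos, Junb, Ier2, Ier3 and Btg2). Without TG at ZT14 replicate 3, Fos, Junb and Btg2 stood at -0.56, -0.43 and -0.32.

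The libraries differed within groups in a way that several members shared. Correlations were taken over the 12 libraries on log2 CPM less the group mean, so that neither time nor genotype enters, and are given as a description. They share the libraries' scaling, and the 12 points have 8 degrees of freedom after the 4 means. Among the 36 pairs of tested members the median Pearson r was 0.31 (Spearman 0.21), and 24 of 36 were positive. The median r of a member with all tested genes lay between -0.03 and 0.01. Without both libraries that stood apart the median over pairs was 0.10. The pairs with the highest r were Junb with Btg2 (0.86), Fos with Btg2 (0.84), Ier3 with Dusp1 (0.80), Egr1 with Btg2 (0.71) and Fos with Junb (0.71). Without the 2 libraries these were 0.57, 0.30, 0.87, 0.78 and 0.07, in the same order, so that the pairs Ier3 with Dusp1 and Egr1 with Btg2 were as high without them and Fos with Junb was not.

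**Figure D3:**
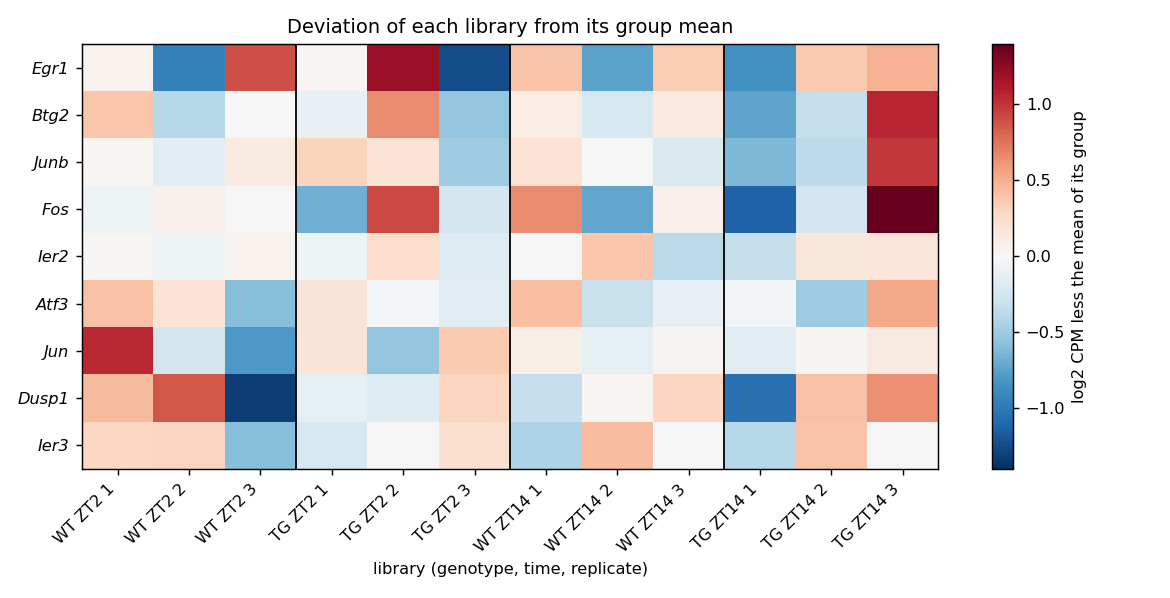
Each cell gives the log2 CPM of a tested gene in 1 library less the mean of its group of 3 (red above, blue below), with genes in rows and libraries in columns. TG at ZT14 replicate 3 is high in Fos (1.4), Btg2 (1.07), Junb (0.99) and Dusp1 (0.64), while TG at ZT14 replicate 1 is low in Fos (-1.13), Dusp1 (-1.04) and Egr1 (-0.85).

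TG at ZT14 held the widest shared spread. In replicate 3, Fos, Btg2 and Junb lay 1.4, 1.07 and 0.99 above the group mean on the log2 scale, and in replicate 1 they lay at -1.13, -0.73 and -0.62. In TG at ZT2 replicate 2, Egr1, Fos and Btg2 lay 1.21, 0.93 and 0.66 above the mean of their group, with Jun at -0.55. WT at ZT2 replicate 3 was high in Egr1 (0.90) and low in Dusp1 (-1.32), Jun (-0.80), Atf3 and Ier3 (-0.60 each), so that Egr1 and Dusp1 did not rise and fall together there. The hepatocyte, Kupffer cell, lymphocyte and erythroid marker sums were all highest in the 2 libraries that stood apart (erythroid 547 and 415 CPM against 238 to 355 CPM). Those of lymphocytes were 23.7 and 21.2 CPM there, against 14.1 to 19.7 CPM in the others. The sums of the other listed cell types were highest elsewhere. The part of these cells in the members' values was not tested.

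Reads in introns can come from RNA not yet spliced, though their source was not tested here. Exon and intron reads were deposited apart. Jun and Ier2 have no intron and no intron read. Over the 12 libraries, intron reads made up 116 of 7987 Egr1 reads (1.45%), 253 of 10431 Dusp1 reads (2.43%), 68 of 495 Atf3 reads (13.7%) and 0.801% of Junb reads. These shares cannot be compared between genes, because intron lengths differ widely. Atf3 spans 47744 bases with 2154 in exons, and Dusp1 spans 2930 bases with 2697 in exons. For Egr1 the 3 WT libraries at ZT2 had 0 of 1081, 0 of 403 and 10 of 1773 reads in introns, and the TG libraries had 24 of 1064, 67 of 2532 and 2 of 478. The counts of 0 allow shares of up to 0.341% and 0.911% by the exact 95% binomial interval. At ZT14 the Egr1 counts were 1 of 94, 5 of 44 and 0 of 97 in WT and 3 of 66, 4 of 165 and 0 of 190 in TG, where the counts of 0 allow up to 3.73% and 1.92%. The share was higher in 2 TG libraries at ZT2, 2.26% (exact 95% binomial interval 1.45% to 3.34%) and 2.65% (2.06% to 3.35%), than in any WT library at that time, while the third TG library had 0.418% (0.0507% to 1.503%). Such intervals cover counting error only, since the reads carry no molecular identifiers.

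Fitted on intron reads alone, TG exceeded WT in Egr1 at ZT2 by 3.21 on the log2 scale (SE 1.09) and did not pass the threshold (adjusted p = 0.388 by edgeR). In the same fit the Egr1 time change was -1.04 in WT (adjusted p = 0.820 by edgeR) and -4.06 in TG (adjusted p = 0.0515 by edgeR). On exon reads alone it was -4.07 and -3.69, both called. Dusp1 intron reads numbered 26 in WT and 30 in TG at ZT2, and 84 and 113 at ZT14, a log2 change of 1.30 in WT and 1.47 in TG (adjusted p = 0.296 and 0.139 by edgeR), beside 0.79 and 1.42 on exon reads alone.

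**Figure D4:**
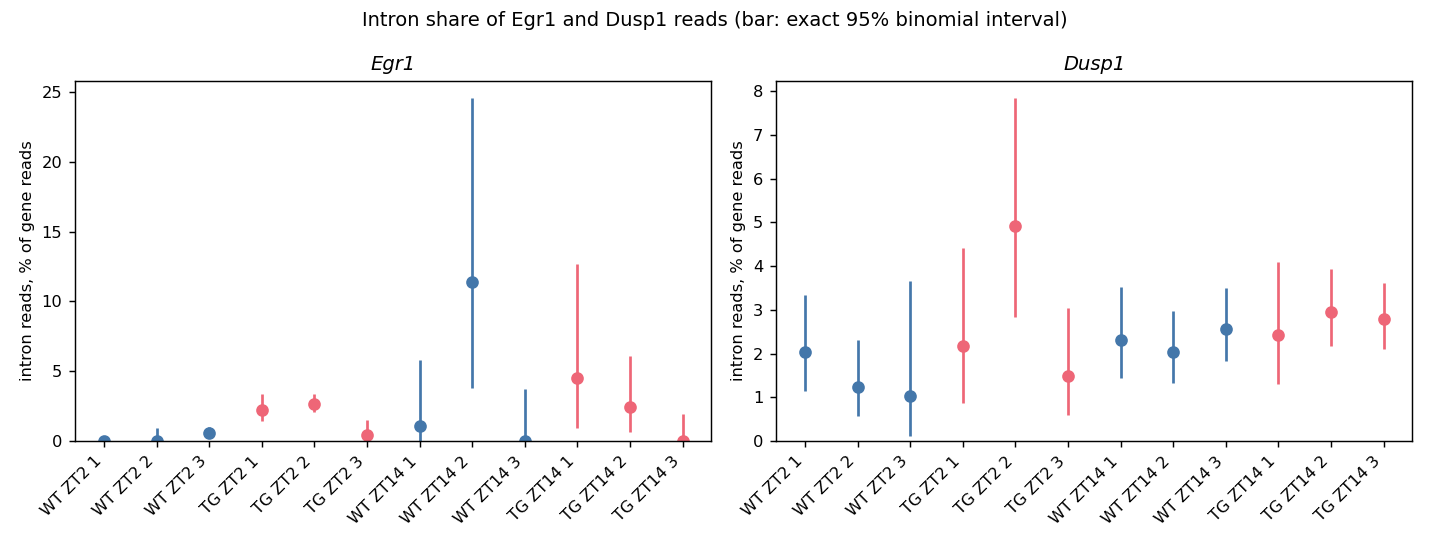
Points give intron reads as a percent of all reads of Egr1 (left) and Dusp1 (right) in each library (blue WT, red TG), with exact 95% binomial intervals. For Egr1, TG at ZT2 replicates 1 and 2 lie at 2.26% and 2.65% with narrow intervals, while the intervals at ZT14 are wide because few reads remained.

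Genes around the members were taken from lists. Of 48 other primary response genes, 44 were tested. For time, edgeR called 9.17% of all tested genes in WT and 12.2% in TG. In WT 1 was higher at ZT14 (Plk2, a polo-like kinase, 1.4-fold) and 1 lower (Dusp4, a MAP kinase phosphatase, 2.24-fold), and in TG 3 were higher and 1 lower. The 3 were Bcl3, a nuclear IκB protein (1.63-fold), Trib1, a pseudokinase that promotes protein degradation (1.44-fold), and Rhob, a small GTPase (1.42-fold). Btg1, a relative of Btg2, fell from 58.7 ± 7.69 to 29.4 ± 7.26 CPM in TG (SD, n = 3 each; log2 change -0.999, SE 0.21, adjusted p = 0.00797 by edgeR). Between genotypes edgeR and limma-voom called 0 of 44 at either time, while 11 at ZT2 and 2 at ZT14 had an unadjusted p under 0.05 by edgeR (7.56% and 6.91% of all tested genes), and DESeq2 called 2 at ZT2 (Plk2 and Trib1) and 0 at ZT14. The Btg1 call was kept in all 12 fits that left out 1 library. The other 5 were lost in 3 to 7 of those fits, chiefly when a library of the compared groups was left out, with adjusted p up to 0.146 by edgeR, and limma-voom called neither Plk2 nor Dusp4. Without both libraries that stood apart, Bcl3 was lost (adjusted p = 0.09997 by edgeR). The list's median log2 change with time was -0.02 in WT and 0.17 in TG, beside 0.01 for all tested genes.

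Upstream kinases were tested in 22 of 23 cases. At ZT14, edgeR called 3 higher in WT and 4 in TG and none lower in either, where it called 9.17% and 12.2% of all tested genes. In TG, DESeq2 called 4 higher and 2 lower. Without both libraries that stood apart, edgeR called 5 higher and 1 lower there. Mapk14, the p38 alpha kinase, rose from 85.9 ± 3.01 to 127 ± 14.2 CPM in WT and from 85.3 ± 2.01 to 126 ± 5.13 CPM in TG (1.48-fold and 1.47-fold, adjusted p = 0.00136 and 0.00137 by edgeR). Map2k3, which activates p38, rose 1.44-fold in WT and 1.39-fold in TG. Map2k6, the other main activator of p38, rose 2.88-fold in WT, from 7.52 ± 2.27 to 21.6 ± 2.57 CPM. In TG Map2k2, an activator of ERK, rose 1.27-fold and Rps6ka4, a kinase of histone H3 and CREB at immediate early promoters, rose 1.96-fold. Without TG at ZT2 replicate 2, the TG calls of Map2k2 and Rps6ka4 were lost (adjusted p = 0.0570 and 0.0536 by edgeR), and the calls of Mapk14, Map2k3 and Map2k6 were kept in all 12 such fits. Rps6ka4 was also the 1 kinase called between genotypes by edgeR, at ZT14, with 9.93 ± 1.02 CPM in WT livers against 42.5 ± 14.2 CPM in TG livers (log2 difference 2.10, SE 0.22, adjusted p = 0.00104 by edgeR). At ZT2 it had 10.4 ± 1.81 CPM in WT livers and 21.7 ± 3.09 CPM in TG livers. It was called at ZT2 by DESeq2, and by edgeR without both libraries that stood apart, but not by edgeR on all 12 libraries or by limma-voom. The neighbours of Rps6ka4 on its chromosome were not examined here. The cause of its genotype difference, and any bearing on the members, was not tested.

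All 19 upstream transcription factors were tested, and the shares of all tested genes called for time were 9.17% in WT and 12.2% in TG. In WT 2 fell at ZT14, Stat3, the effector of interleukin-6 (1.91-fold, from 167 ± 43.7 to 87.8 ± 3.67 CPM), and Crtc2, the cAMP-regulated coactivator of CREB (1.22-fold). In TG Crtc2 (1.22-fold) and Mkl2 (1.39-fold) fell and Mkl1 rose (1.42-fold), both of the latter being actin-regulated coactivators of serum response factor. The Stat3 call was kept in all 12 fits that left out 1 library, while Crtc2 was lost in 4 in each genotype, Mkl2 in 6 and Mkl1 in 1 (without TG at ZT2 replicate 3). Without both libraries that stood apart, the TG calls of Crtc2 and Mkl2 were lost (adjusted p = 0.0661 and 0.120 by edgeR) at log2 changes of -0.33 and -0.49, beside -0.28 and -0.47 with them. Between genotypes edgeR, DESeq2 and limma-voom called 0 at either time, and 2 at ZT2 and 1 at ZT14 had an unadjusted p under 0.05 by edgeR, again beside 7.56% and 6.91% of all tested genes. For comparison, 8 of 10 genes for heat shock proteins and their partners passed the test as higher at ZT14 in each genotype, with medians over the list of 0.99 and 0.96 on the log2 scale. With 1 library left out, Hspb1 was lost in 7 of 12 fits and Dnajb1 and Hsp90aa1 in 5 each in WT, Hsp90aa1 was lost in 8 in TG, and the calls of the others were kept. The TG call of Hsp90aa1 was also lost without both libraries that stood apart (adjusted p = 0.142 by edgeR).

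The likeness of other genes to the members was measured as Pearson's r over the 12 libraries, time and genotype included, between a gene's log2 CPM and the mean standardized log2 CPM of the 9 tested members. Among 9366 genes with a mean of at least 5 CPM the highest were Stk17b (0.87), Fam188a (0.85), Diablo and Atp6v1g1 (0.84 each), Wdr55 and Aass (0.82 each), and Slbp, Fam32a, Ctcflos and Pcna (0.80 each). None of the 10 belongs to the lists above. The mean profile ranged from -0.75 in TG at ZT14 replicate 1 to 0.87 in TG at ZT14 replicate 3, and its second highest value, 0.69, was that of WT at ZT2 replicate 1. It mixes members that fell and members that rose with time, and r is the highest of many genes searched.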

How the data were processed

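The deposited tables, 1 per library, hold whole-gene, exon and intron read counts, uniquely mapped counts and RPKM, per the file headers. In every row total gene reads are exon plus intron reads, and the authors' RPKM divide exon reads by exon length and by the library's total gene reads. Builds mm10 and GRCm38 are listed in the submitters' processing notes, while no source used here names the aligner or counter, or states whether strand was used. Libraries came from poly(A) RNA with a NEBNext Ultra kit, per the labels' protocols.

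The tests used R 4.3.3 and edgeR 4.0.16 on total gene reads. The filter was filterByExpr (minimum count 10, minimum total 15), TMM gave the scaling, and all 12 samples entered 1 quasi-likelihood model with 4 groups, with Benjamini-Hochberg adjustment over 15244 genes in each contrast. CPM use the same scaling, and log2 CPM for spread and correlation add a prior count of 2. Alternatives changed the scaling (RLE size factors, or library size alone), the tool (limma-voom 3.58.1 or DESeq2 1.42.0), the filter (at least 1 read, or 1 CPM in 3 samples), the reads (unique, exon or intron alone) and the samples (the 6 of a contrast, each library left out in turn, and both libraries that stood apart left out), or added the replicate number as a block. No library repeated another: the smallest chi-square per degree of freedom between 2 libraries of 1 group was 9.85.

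All members are named, and of the lists around them at most 6 called genes per contrast, by smallest p; the lists are other primary response genes, upstream kinases, upstream transcription factors, heat shock genes and markers of liver cell types. Genes most like the members exclude predicted genes and RIKEN clones. The members and lists were chosen with earlier results of these data known. Intervals on shares are exact (Clopper-Pearson). In simulated data on 15244 genes, the genotype contrasts recovered 64% (ZT2) and 74% (ZT14) of 2-fold changes, the time contrasts 74% (WT) and 70% (TG), and the difference of the 2 time changes 48%. The changed genes were drawn at random from all tested genes, 50 for each of 1.5-fold, 2-fold, 3-fold and 4-fold in every contrast. In the real data 11 (ZT2) and 13 (ZT14) genes were called between genotypes, and 1 for the difference of time changes. With so few calls the adjustment is stricter, so the simulated rates cannot be read as those of these real contrasts. The members had a wider spread within groups, above 62.5% (Ier2) to 98.5% (Egr1) of tested genes, so these rates cannot be read as theirs.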

Additional observations from a re-analysis of the deposited data

How the results depend on the processing

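Of 1031 values of single members under the alternatives, 945 kept their direction and their side of the threshold. Another 23 kept direction but lost the call, 8 gained one and 55 changed sign, all 55 for differences that were not called. Most of the 1031 belong to differences that were not called and so had no call to lose. The 23 all fall among the called time changes, chiefly Junb in WT and Jun in TG, lost in 8 and 9 of 12 fits that left out 1 library. The number of members called for time in WT, 2 in the report, was 1 with library size alone, where Junb was lost (adjusted p = 0.0553 by edgeR), 0 on intron reads alone, and 1 to 2 with 1 library left out. In TG, 3 in the report, it was 5 with no filter beyond 1 read, where Junb and Dusp1 were added (adjusted p = 0.0180 and 0.00881 by edgeR), 4 with limma-voom, where Junb was added (adjusted p = 0.0460), 0 on intron reads alone, 2 to 4 with 1 library left out, and 2 without both libraries that stood apart (Egr1 and Junb). Intron reads were too few to test most members, so fewer values exist there. The fit to the 6 samples of a contrast gives no value for the difference of time changes.

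The replicate numbers showed no clear pairing of the samples, though 3 libraries a group cannot settle this. Of 12 same-numbered pairs, 2 had a correlation of deviations over 0.1 (range -0.25 to 0.15), and 4 were best with their own number. Among these 4 were replicates 1, 2 and 3 of WT with TG at ZT14, at correlations of 0.050, 0.046 and 0.037. With the replicate block 1 member was called for time in WT, since Junb stood at -1.21 (adjusted p = 0.0726 by edgeR), and 3 in TG.

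Signs changed as follows, on the log2 scale. Without both libraries that stood apart, TG against WT at ZT2 was -0.37 for Egr1, -0.033 for Fos, -0.024 for Junb and -0.32 for Btg2, at ZT14 it was -0.38 for Junb, -0.23 for Dusp1 and -0.24 for Btg2, and the difference of time changes was -0.36 for Junb. Intron reads alone gave 0.18 for Dusp1 between genotypes at ZT2 and -3.02 for the Egr1 difference of time changes. With limma-voom, Dusp1 between genotypes at ZT14 was -0.058 and Jun with time in WT 0.073. For Ier2 the difference of time changes was -0.014 with library size alone and -0.0034 on exon reads alone. With 1 library left out, TG against WT at ZT2 ran from -0.37 to 0.97 for Egr1, -0.034 to 0.90 for Fos, -0.10 to 0.27 for Junb and -0.32 to 0.32 for Btg2. At ZT14 it ran from -0.38 to 0.58 for Junb, -0.30 to 0.088 for Ier2, -0.44 to 0.084 for Ier3, -0.23 to 0.44 for Dusp1 and -0.24 to 0.82 for Btg2. Time in WT ran from -0.45 to 0.61 for Jun and -0.0099 to 0.48 for Atf3, and in TG from -1.23 to 0.50 for Fos and -0.82 to 0.31 for Btg2. The difference of time changes ran from -0.20 to 1.13 for Egr1, -0.56 to 1.18 for Fos, -0.43 to 0.52 for Junb, -0.16 to 0.23 for Ier2, -0.12 to 0.41 for Ier3 and -0.32 to 0.82 for Btg2. The cause of these changes was not tested.

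Over the whole table, calls between genotypes at ZT2 numbered 11 with edgeR and 57 with DESeq2 (3 on intron reads alone), and at ZT14 13 and 53 (4). For time they ran from 239 to 1704 in WT and 698 to 2099 in TG, against 1398 and 1862, lowest on intron reads alone and highest with DESeq2. With 1 library left out they ran from 7 to 22, 10 to 17, 770 to 1511 and 1127 to 1873. For the difference of time changes DESeq2 called 21 against 1. The low counts of Fos, Ier3, Atf3 and Fosb limit what can be seen in these genes.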
